A study of Mus musculus with 4 samples.

Results

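The genes described here are the ligands and receptors of the TNF superfamily, chosen by name from the gene count table: every gene whose symbol begins with Tnfrsf or Tnfsf, together with Cd40, Cd40lg, Cd27, Cd70, Fas, Fasl, Tnf, Lta, Ltb and Ltbr. This gave 43 of 41342 named genes, which comprised 24 receptors, 18 ligand genes (1 of them the read-through gene Tnfsf12Tnfsf13) and 1 antisense gene, Tnfsf13os, taken in by its name. They were measured in RNA of CD43-depleted splenic B cells of 129 mice, in 1 resting and 1 LPS-activated library for each of 2 genotypes. ΔleftPAL mice lack the enhancers hs3a and hs1,2 of the IgH 3' regulatory region and the sequence between them. ΔIRIS mice lack the left-side intervening repeat sequence but keep all enhancers, with hs3a turned around. In both genotypes the palindrome of the 3' regulatory region is therefore disrupted, and the wt libraries were not analysed here, so no value is relative to an intact region. Resting cells were used fresh, and activated cells had been kept for 48 h with 5 μg/ml LPS, a bacterial lipopolysaccharide that stimulates B cells through Toll-like receptor signalling. A library was made from a pool of 4 mice according to the labels; the study's methods describe the pooling in another way, so how many mice stand behind each library is uncertain, and the resting and LPS-activated libraries of a genotype are not replicates of that genotype.

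TNF superfamily ligands are trimeric proteins, mostly anchored in the membrane, that cluster their receptors on the responding cell. Most of these receptors recruit TRAF adaptors and thereby activate NF-κB, and a subset with a death domain can start apoptosis. In splenic B cells, BAFF keeps mature cells alive through its receptor BAFF-R, CD40 receives help from T cells, and membrane lymphotoxin made by B cells organises follicles.

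Of the 43 genes, 20 averaged 50 counts or more per library and entered the test of the LPS change, among them 16 receptors and the ligands Tnf, Lta, Ltb and Tnfsf10. Of these 20, 15 reached that average in both conditions, 3 (Tnfrsf11a, Tnfrsf1a and Tnfrsf12a) only in resting cells and 2 (Tnfrsf8 and Tnfrsf22) only in LPS-activated cells, so that a difference was built into the passing of these 5. A further 10 genes had at least 20 counts in some library and are given by their values, and 13 stayed below 20 counts in every library, with 17 as the highest. Gene counts summed to between 23621743 and 29778717 per library, and the 43 genes held between 16000 and 19149 of them. All 8 B cell markers were above 3 counts in each library, with a summed level of 4672 and 3991 CPM (counts scaled to a common library size, with TMM factors) in resting ΔleftPAL and ΔIRIS cells and 2286 and 2249 CPM after LPS. The summed levels of the markers of other cells were lower after LPS: the 10 T cell markers summed to 60.1 and 49.5 CPM at rest and 19.99 and 18.8 CPM after LPS, with Cd3d, Cd3e and Cd3g at 0 counts in both LPS libraries, and the 6 NK cell markers to 14.9 and 10.6 CPM against 1.00 and 0.611 CPM. The 8 monocyte, macrophage and neutrophil markers summed to 384 and 505 CPM at rest and to 13.7 and 18.9 CPM after LPS, where S100a8, S100a9 and Mpo had 0 counts, and the 5 dendritic cell markers to 66.9 and 108 CPM against 46.9 and 35.3 CPM. Single markers of these lists went the other way: the dendritic cell marker Flt3 was higher after LPS in both genotypes (18.7 and 43.6 CPM in ΔleftPAL, 27.5 and 33.9 CPM in ΔIRIS cells), and Itgam and Cd28 were higher in ΔIRIS cells. In such bulk RNA, fewer cells of a type and less RNA per cell cannot be told apart.

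The first comparison asked how LPS activation changed these genes over both genotypes. None of the libraries used came from cells cultured without LPS, so LPS and 48 h of culture cannot be told apart. With genotype as a block in edgeR's quasi-likelihood test, 2 of the 20 tested genes rose (31.3% of the 11286 genes tested were called higher) and 12 fell (31.4% were called lower), at an adjusted p under 0.05. The genes that rose were Tnfrsf13b and Tnfrsf8, and those that fell were Ltb, Lta, Tnfrsf1a, Tnfrsf21, Tnfrsf11a, Tnfrsf18, Tnfrsf14, Tnfrsf12a, Tnfrsf19, Tnfrsf26, Tnfsf10 and Tnfrsf1b. At a change of at least 2-fold, 2 were called higher (18.1% of all genes) and 9 lower (19.2%). Within ΔleftPAL cells alone, with no test, 3 genes were at least 2-fold higher (18.4% of all genes) and 9 lower (18.7%), and within ΔIRIS cells 2 were higher (18.8%) and 8 lower (21.1%). In both genotypes 2 were higher (15.3%) and 8 lower (16.0%). The median log2 fold change was -0.85 over the 20 genes and -0.02 over all genes tested. The change had the same direction in both genotypes for 18 of the 20 genes, against 89.4% of all genes. The test has 1 residual degree of freedom from 2 pools of mice. A gene's error comes from the difference between the genotypes' LPS changes, drawn towards the error of the other genes with 3.41 prior degrees of freedom. The p-values therefore measure only the spread between these libraries, much of it taken from other genes.

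**Figure D1:**
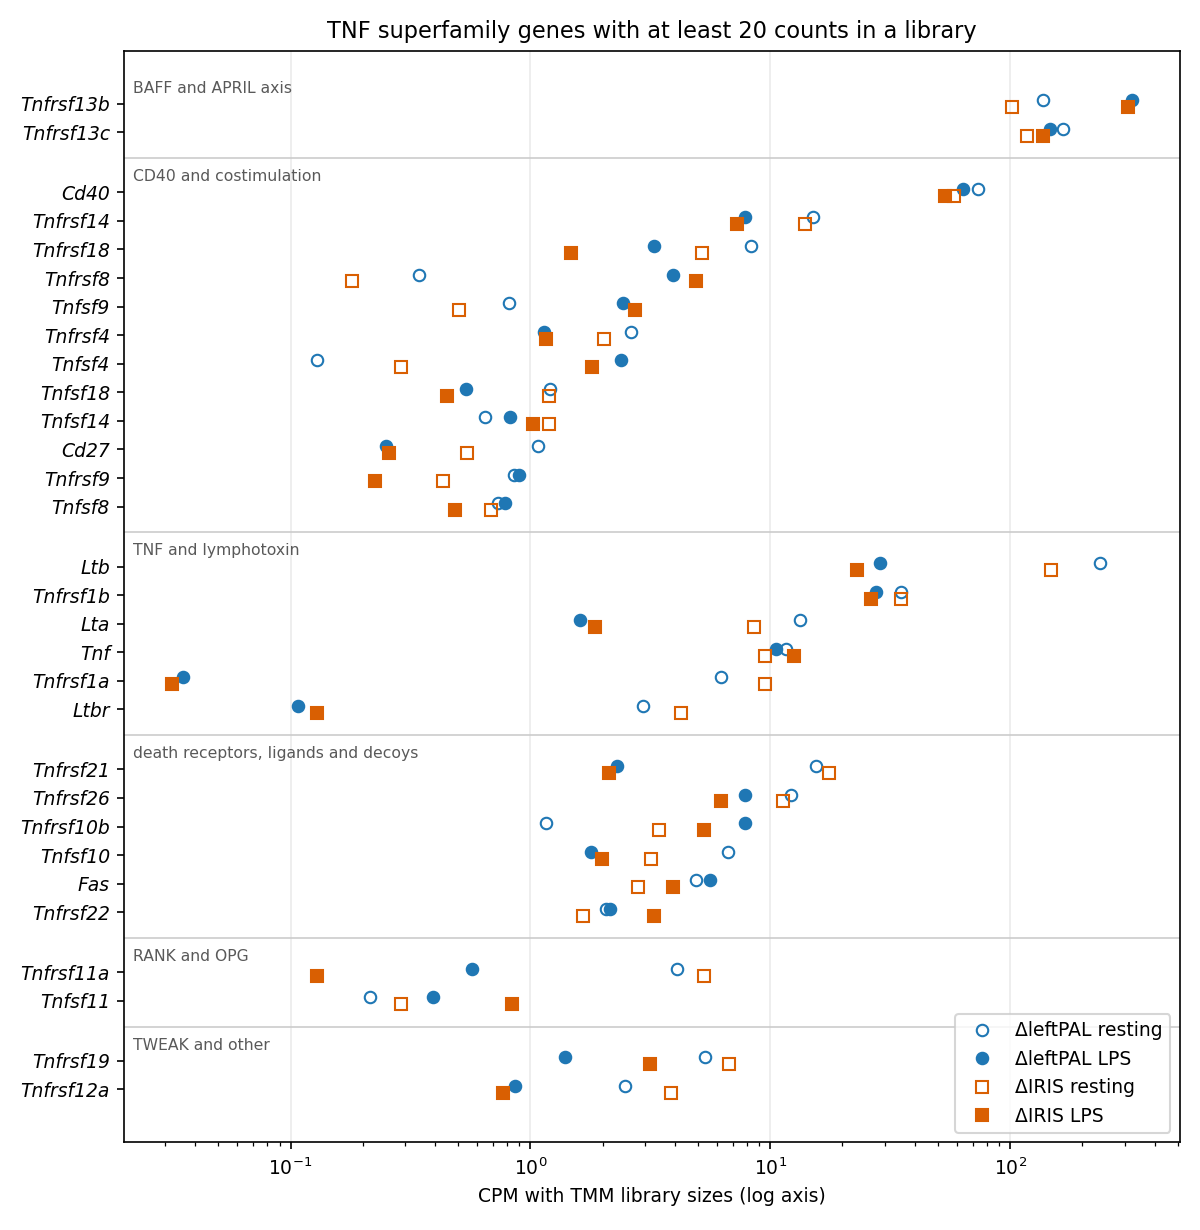
Level of the 30 genes with at least 20 counts in a library, as CPM with TMM library sizes on a log axis, by role. Circles are ΔleftPAL and squares ΔIRIS, open for resting and filled for LPS-activated cells; the filled symbols of Ltb, Lta, Tnfrsf1a and Ltbr lie left of the open ones, and those of Tnfrsf13b, Tnfrsf8, Tnfsf9 and Tnfsf4 lie right of them.

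A few genes carried most of the counts. Ltb, Tnfrsf13c, Tnfrsf13b, Cd40 and Tnfrsf1b together made up 84.0% and 79.8% of the counts of the 43 genes in resting ΔleftPAL and ΔIRIS cells and 89.4% in both LPS libraries. Ltb accounted for 30.6% and 25.6% of them at rest but for 4.36% and 3.73% after LPS. Tnfrsf13b went the other way, from 17.8% and 17.6% at rest to 48.9% and 50.5% after LPS, and Tnfrsf13c stayed between 20.4% and 22.3% in all libraries. Per kilobase of exon, the order of levels at rest was Ltb, Tnfrsf13c, Tnfrsf13b, Cd40 in both genotypes, and after LPS Tnfrsf13b and Tnfrsf13c stood first and second in both.

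Among the genes of the BAFF and APRIL axis, 1 of 2 tested genes rose and 1 did not pass the test, where 31.3% of all genes were called higher and 31.4% lower. With so few tested genes in this and the following groups, these counts say nothing particular about a group. Tnfrsf13b (ENSMUSG00000010142, chr11:61126755-61149372, plus strand, mm10) encodes TACI, the receptor for BAFF and APRIL that is prominent on marginal zone and activated B cells. It had 3202 counts at rest and 8989 after LPS in ΔleftPAL cells, and 2813 and 9662 in ΔIRIS cells. Both LPS libraries lay above both resting libraries, with levels of 113 and 110 against 48.4 and 35.8 FPKM, and the fitted rise was 1.42 ± 0.15 (log2, SE, 2 pools per condition, edgeR adjusted p = 0.00228), or 2.67-fold. Gm12269 overlaps it on the opposite strand. Tnfrsf13c (ENSMUSG00000068105, chr15:82221744-82224339, minus strand) encodes BAFF-R, the receptor through which BAFF sustains mature B cells. Its counts were 3863 and 4095 at rest and after LPS in ΔleftPAL cells and 3266 and 4269 in ΔIRIS cells. The 2 conditions overlapped in level, from 58.5 to 82.2 FPKM at rest and from 68.1 to 72.6 FPKM after LPS, and no change was called (log2 0.02 ± 0.15 SE, edgeR adjusted p = 0.915). The FPKM of Tnfrsf13b was 0.590 and 0.613 times that of Tnfrsf13c in resting ΔleftPAL and ΔIRIS cells and 1.56 and 1.61 times after LPS, while the same ratio from kallisto TPM was 0.997 and 0.851 at rest and 2.71 and 2.82 after LPS. TACI mRNA was thus below or level with BAFF-R mRNA at rest and above it after LPS in both tables.

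The remaining genes of this axis were scarce. Tnfrsf17, which encodes BCMA, the APRIL receptor of plasma cells, had 8 and 13 counts at rest and after LPS in ΔleftPAL cells and 3 and 2 in ΔIRIS cells, while the summed level of 6 plasmablast markers was 655, 1749, 943 and 1206 CPM in the same order. Of these markers, Irf4 (634 and 370 CPM) and Sdc1 (18.8 and 12.4 CPM) were lower after LPS in ΔIRIS cells. Prdm1, Xbp1, Igj and Mzb1 were higher there, and all 6 were higher after LPS in ΔleftPAL cells. The BAFF gene Tnfsf13b had at most 3 counts in every library. The APRIL gene Tnfsf13 had 8 counts in each resting library and 0 in each LPS library. For Tnfsf13 the floor of 3 counts puts the level after LPS at least 3.20-fold lower in ΔleftPAL and at least 3.0-fold lower in ΔIRIS cells if the 8 resting counts are taken as exact. With their counting error included, the 95% interval of the log2 ratio ends at -1.03 and -0.94. Tnfsf13 and Tnfsf12 each overlap Tnfsf12Tnfsf13 on the same strand, so the counts of these genes are uncertain. The kallisto estimates of Tnfsf13 at rest were 40 and 35.

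The 250 bases before the RefSeq start (GRCm38.p6) of Tnfrsf13b and Tnfrsf8, the genes that rose, are shown because both carried the motif searched here. Capitals mark matches on either strand to GGG and CC with 5 bases of any kind between them, a loose form of the κB sites that NF-κB binds.
Tnfrsf13b promoter, chr11:61126505-61126754, plus strand: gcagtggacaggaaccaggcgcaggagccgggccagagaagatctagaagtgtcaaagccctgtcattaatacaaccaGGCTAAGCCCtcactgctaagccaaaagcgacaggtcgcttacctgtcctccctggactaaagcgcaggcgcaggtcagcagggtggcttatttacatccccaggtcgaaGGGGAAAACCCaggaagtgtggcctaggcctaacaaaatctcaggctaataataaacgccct
Tnfrsf8 promoter, chr4:145315165-145315414, minus strand: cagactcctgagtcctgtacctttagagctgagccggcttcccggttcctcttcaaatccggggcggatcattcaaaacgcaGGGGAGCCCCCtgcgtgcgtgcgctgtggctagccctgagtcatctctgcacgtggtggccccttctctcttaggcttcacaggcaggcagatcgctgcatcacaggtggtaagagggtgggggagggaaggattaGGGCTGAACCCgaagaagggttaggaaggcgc
Promoters of 31 of the 43 genes were found in the RefSeq table, in 35 windows of 300 bases that run 50 bases past the start, and 22 of these 35 windows held this motif, as did 50.8% of 32851 promoters of the same length. The motif TGANTCA, a form of AP-1 sites searched on both strands and free to overlap the first, was in 7 of the 35 windows and in 7.81% of all. A match describes the letters only.

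Among the genes of CD40 and costimulation, 4 of 16 were tested: 1 rose (31.3% of all genes), 2 fell (31.4%) and 1 did not pass the test. Cd40 (ENSMUSG00000017652, chr2:165055627-165072948, plus strand) encodes the receptor for T cell CD40 ligand. It had 1706 and 1781 counts at rest and after LPS in ΔleftPAL cells and 1617 and 1667 in ΔIRIS cells. The level ran from 15.7 to 21.5 FPKM and overlapped between the conditions (log2 -0.16 ± 0.11 SE, edgeR adjusted p = 0.266). Tnfrsf8 (ENSMUSG00000028602, chr4:145267137-145315164, minus strand) encodes CD30, a receptor of activated lymphocytes. Its counts were 8 and 110 at rest and after LPS in ΔleftPAL cells and 5 and 153 in ΔIRIS cells. The LPS libraries stood far above the resting ones in both genotypes, and the fitted rise of 4.08 ± 0.43 (log2, SE, edgeR adjusted p = 0.00240), or 16.9-fold, rests on resting counts of 8 and 5. With 1 pool per genotype, the log2 ratio was 3.52 in ΔleftPAL cells (95% counting interval 2.49 to 4.77) and 4.77 in ΔIRIS cells (3.51 to 6.41). Here and below, such intervals hold only the error of counting, as reads copied by PCR do not stem from separate molecules.

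Tnfrsf14 and Tnfrsf18 fell. Tnfrsf14 (ENSMUSG00000042333, chr4:154922210-154928563, minus strand), the gene of HVEM, which binds LIGHT and the inhibitory receptor BTLA, had 351 and 220 counts at rest and after LPS in ΔleftPAL cells and 387 and 226 in ΔIRIS cells. Both LPS libraries were below both resting libraries, by nearly the same amount in the 2 genotypes (log2 ratio -0.94 in each, fitted -0.94 ± 0.17 SE, edgeR adjusted p = 0.00915). Tnfrsf18 (ENSMUSG00000041954, chr4:156026164-156028895, plus strand) encodes GITR, a costimulatory receptor best known from T cells. It had 194 and 92 counts in ΔleftPAL and 143 and 46 counts in ΔIRIS cells, at rest and after LPS. Its LPS libraries were again below both resting libraries (fitted log2 -1.56 ± 0.27 SE, edgeR adjusted p = 0.00816, 2.95-fold), and it overlaps Gm16008 on the opposite strand. The neighbouring Tnfrsf4 (OX40), within 15.053 kb of it, was below the minimum for the test, with 61 and 32 counts in ΔleftPAL and 56 and 36 in ΔIRIS cells.

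The other 12 genes of this group were measured at low counts, with no test. Tnfsf4, which encodes OX40 ligand, had 3 and 67 counts at rest and after LPS in ΔleftPAL cells and 8 and 56 in ΔIRIS cells. Its log2 ratio was 4.22 (95% counting interval 2.61 to 6.53) in ΔleftPAL and 2.64 (1.56 to 3.92) in ΔIRIS cells. Tnfsf9, the gene of 4-1BB ligand, was likewise higher after LPS in both genotypes, with 19 and 68 counts in ΔleftPAL and 14 and 85 in ΔIRIS cells (log2 ratio 1.58, interval 0.83 to 2.39, and 2.43, interval 1.61 to 3.37). Tnfsf4 is flanked within 109.882 kb on chromosome 1 by Tnfsf18 (GITR ligand), which went the other way with 28 and 15 counts in ΔleftPAL and 33 and 14 in ΔIRIS cells. Cd70, the ligand of CD27, had 1 and 17 counts in ΔleftPAL and 1 and 5 in ΔIRIS cells, so the interval of its ratio ran from 1.15 to 9.21 in ΔleftPAL cells and from -1.01 to 7.72 in ΔIRIS cells. Cd27 had 25 and 7 counts in ΔleftPAL and 15 and 8 in ΔIRIS cells, with a log2 ratio of -2.10 (interval -3.55 to -0.85) and -1.07 (-2.52 to 0.25). Its kallisto estimates were higher, with 65 and 26 in ΔleftPAL and 40 and 16 in ΔIRIS cells, and gave a log2 ratio of -1.46 and -1.38. Cd40lg, the CD40 ligand of helper T cells, had 3 counts in resting ΔleftPAL cells and 0 elsewhere. For Tnfsf8 (CD30 ligand), Tnfsf14 (LIGHT) and Tnfrsf9 (4-1BB), the counts were between 7 and 33 in all libraries and the intervals of both LPS ratios included 0. Tnfsf15 and its receptor Tnfrsf25 had at most 9 counts in any library.

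Among the genes of TNF and lymphotoxin, 5 of 6 were tested: 4 fell (31.4% of all genes) and 1 did not pass the test. The 3 ligands of this group lie within 10.913 kb on chromosome 17 (chr17:35194439-35205351), with Tnf between Ltb and Lta, so their promoters are shown together because their RNAs moved differently. Each run is up to 250 bases before the RefSeq start in GRCm38.p6, with matches to the same κB motif in capitals; that of Ltb is shortened to the bases outside the gene as the count table places it.
Ltb promoter, chr17:35194257-35194438, plus strand: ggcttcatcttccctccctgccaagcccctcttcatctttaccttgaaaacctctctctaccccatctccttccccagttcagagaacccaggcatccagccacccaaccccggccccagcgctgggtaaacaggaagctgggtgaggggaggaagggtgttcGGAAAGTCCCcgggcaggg
Tnf promoter, chr17:35202008-35202257, minus strand: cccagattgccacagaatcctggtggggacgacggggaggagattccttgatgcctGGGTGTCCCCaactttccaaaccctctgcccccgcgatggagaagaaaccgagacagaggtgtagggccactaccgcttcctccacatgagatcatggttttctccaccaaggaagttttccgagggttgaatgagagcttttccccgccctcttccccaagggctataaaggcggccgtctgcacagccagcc
Lta promoter, chr17:35205352-35205601, minus strand: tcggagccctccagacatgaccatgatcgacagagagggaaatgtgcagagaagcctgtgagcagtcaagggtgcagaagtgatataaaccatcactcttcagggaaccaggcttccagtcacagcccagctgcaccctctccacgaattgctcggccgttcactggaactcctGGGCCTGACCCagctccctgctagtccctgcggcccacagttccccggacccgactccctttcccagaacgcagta
The capital stretch of Ltb also matches, on the other strand, GGG and TTTCC with 2 bases of any kind between them. This narrower motif, added after the values had been seen, was in 3 of the 35 windows (Ltb, Tnfrsf25 and Tnfrsf9) and in 1.63% of all promoters.

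Ltb (ENSMUSG00000024399) encodes lymphotoxin β, which anchors lymphotoxin α in the membrane of B cells. It had 5512 and 802 counts at rest and after LPS in ΔleftPAL cells and 4098 and 715 in ΔIRIS cells. Both LPS libraries were far below both resting libraries, at 18.9 and 15.2 against 156 and 97.7 FPKM, and the fitted fall was -2.87 ± 0.15 (log2, SE, edgeR adjusted p = 0.000866), or 7.29-fold. Lta (ENSMUSG00000024402), the gene of lymphotoxin α itself, had 309 and 45 counts in ΔleftPAL and 237 and 58 in ΔIRIS cells. It fell in the same way (log2 -2.61 ± 0.31 SE, edgeR adjusted p = 0.00311, 6.11-fold). Tnf (ENSMUSG00000024401), the gene of the inflammatory cytokine TNF, had 272 and 295 counts in ΔleftPAL and 262 and 390 in ΔIRIS cells. Its levels in the 2 conditions overlapped, from 5.78 to 7.12 FPKM at rest and from 6.44 to 7.65 FPKM after LPS (log2 0.13 ± 0.21 SE, edgeR adjusted p = 0.612). In FPKM, Ltb was 21.9 and 16.9 times Tnf in resting ΔleftPAL and ΔIRIS cells and 2.94 and 1.98 times after LPS. Lta was 1.35 and 1.07 times Tnf at rest and 0.181 and 0.176 times after LPS, so these 2 adjacent genes changed their order in both genotypes. Mir6973a lies within Ltb and Mir6974 within Lta on the same strand, and Tnf overlaps no other gene.

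The receptors of these ligands differed in how far they were lower after LPS. Tnfrsf1a (ENSMUSG00000030341, chr6:125349362-125362484, plus strand) encodes TNFR1, the widely expressed TNF receptor with a death domain. It had 145 counts in resting ΔleftPAL cells and 263 in resting ΔIRIS cells, but 1 in each LPS library. Its log2 ratio was -7.44 (95% counting interval -12.76 to -4.94) in ΔleftPAL and -8.21 (-13.52 to -5.72) in ΔIRIS cells. The fitted value was -7.68 ± 0.43 (SE, edgeR adjusted p = 0.000902). That SE was back-calculated from the test statistic. With 1 count in each LPS library it understates the error in the size of the fall, for which the counting intervals are far wider. Ltbr (ENSMUSG00000030339, chr6:125306571-125313885, minus strand), the lymphotoxin β receptor, which is typical of stromal and myeloid cells, had 69 and 3 counts in ΔleftPAL and 117 and 4 in ΔIRIS cells and was below the minimum for the test. Its log2 ratio was -4.79 (-7.10 to -3.18) in ΔleftPAL and -5.04 (-6.94 to -3.64) in ΔIRIS cells. Cd27, Ltbr and Tnfrsf1a lie within 129.863 kb on chromosome 6, and each had fewer counts after LPS in both genotypes. Of the 8 monocyte, macrophage and neutrophil markers, Csf1r and Lyz2, named after their values had been seen, also had fewer counts after LPS: Csf1r had 4127 and 8 counts in ΔleftPAL and 6532 and 5 in ΔIRIS cells, and Lyz2 had 2374 and 35, and 4322 and 14. Itgam, of the same list, had 321 and 140 counts in ΔleftPAL but 304 and 450 in ΔIRIS cells. At rest, Csf1r and Lyz2 had a higher level in ΔIRIS than in ΔleftPAL cells, as Tnfrsf1a and Ltbr had, whereas S100a8 (0.72 against 3.69 CPM), S100a9 (0.87 against 5.49 CPM) and Itgam (11.0 against 13.8 CPM) had a lower one. The part of other cell types in these values was not tested.

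Tnfrsf1b (ENSMUSG00000028599, chr4:145213463-145246870, minus strand) encodes TNFR2, the TNF receptor without a death domain, and lies within 101.702 kb of Tnfrsf8. It had 821 and 770 counts at rest and after LPS in ΔleftPAL cells and 970 and 815 in ΔIRIS cells. After scaling, both LPS libraries were below both resting libraries, with 7.21 and 6.87 against 9.23 and 9.18 FPKM. The fall was small (log2 -0.39 ± 0.12 SE, edgeR adjusted p = 0.0472) and lost its call under 6 of 8 other settings, where the adjusted p reached 0.244. Its level after LPS was 1.28-fold lower in ΔleftPAL and 1.34-fold lower in ΔIRIS cells.

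**Figure D2:**
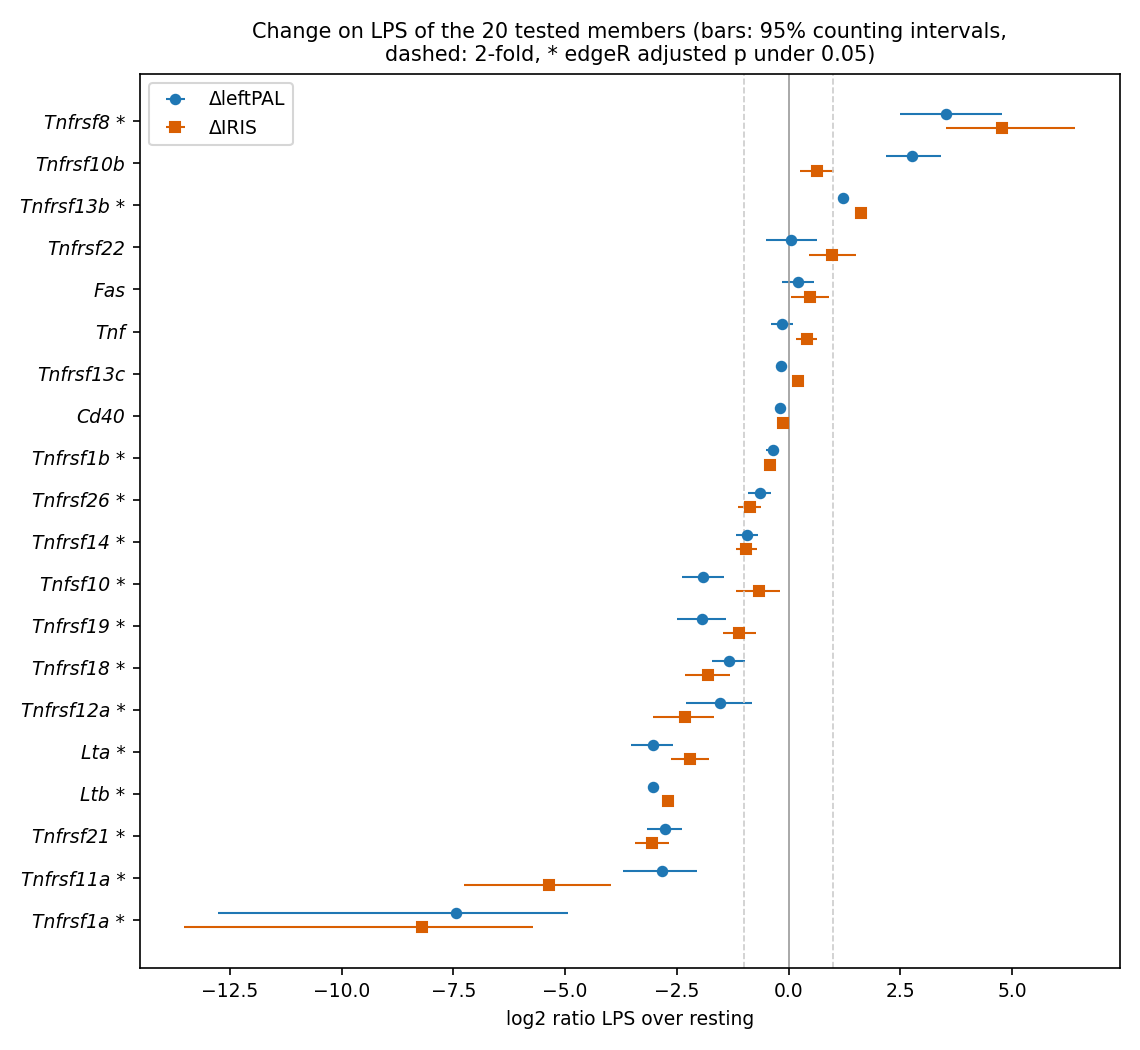
Log2 ratio of LPS-activated over resting cells for the 20 tested genes, in ΔleftPAL (circles) and ΔIRIS (squares) cells, with 95% counting intervals as bars and 2-fold as dashed lines. An asterisk marks an edgeR adjusted p under 0.05; Tnfrsf8 and Tnfrsf13b lie to the right in both genotypes, Tnfrsf10b lies past 2-fold in ΔleftPAL cells alone, and Tnfrsf1a lies farthest to the left.

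Among the death receptors, their ligands and decoys, 6 of 8 were tested: 3 fell (31.4% of all genes) and 3 did not pass the test. Tnfrsf21 (ENSMUSG00000023915, chr17:43016555-43089188, plus strand) encodes DR6, a receptor with a death domain. It had 363 and 64 counts at rest and after LPS in ΔleftPAL cells and 485 and 66 in ΔIRIS cells. Its LPS libraries were well below both resting libraries (fitted log2 -2.90 ± 0.21 SE, edgeR adjusted p = 0.00120, 7.49-fold). Tnfsf10 (ENSMUSG00000039304, chr3:27317028-27342427, plus strand) encodes TRAIL, a ligand that can kill cells through death receptors, and had 156 and 50 counts in ΔleftPAL and 88 and 62 in ΔIRIS cells. It fell (log2 -1.29 ± 0.39 SE, edgeR adjusted p = 0.0434, 0.0600 by DESeq2), with a log2 ratio of -1.90 (95% counting interval -2.39 to -1.44) in ΔleftPAL and -0.67 (-1.17 to -0.19) in ΔIRIS cells. Tnfrsf26 (ENSMUSG00000045362, chr7:143607685-143627845, minus strand), one of a family of mouse receptors that includes decoys for TRAIL, had 285 and 219 counts in ΔleftPAL and 314 and 193 in ΔIRIS cells, and fell (log2 -0.76 ± 0.19 SE, edgeR adjusted p = 0.0241, 0.0527 by DESeq2).

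Fas (ENSMUSG00000024778, chr19:34290659-34327770, plus strand), the death receptor of activated lymphocytes, had 114 and 157 counts at rest and after LPS in ΔleftPAL cells and 78 and 122 in ΔIRIS cells. The conditions overlapped, at 2.72 and 1.56 FPKM at rest and 3.12 and 2.18 FPKM after LPS (log2 0.33 ± 0.25 SE, edgeR adjusted p = 0.287). Gm27818 lies within Fas on the same strand. Its ligand gene Fasl, typical of T and NK cells, had 14 and 3 counts in ΔleftPAL and 5 and 2 in ΔIRIS cells. Tnfrsf10b (ENSMUSG00000022074, chr14:69767472-69784403, plus strand), the mouse death receptor for TRAIL, had 27 and 220 counts in ΔleftPAL and 95 and 165 in ΔIRIS cells. Both LPS libraries were above both resting libraries in level, at 2.48 and 1.67 against 0.365 and 1.08 FPKM, but the genotypes differed widely in their ratio (log2 2.76, interval 2.18 to 3.40, and 0.63, interval 0.26 to 1.01), and the fitted value of 1.61 ± 0.58 (SE) did not pass (edgeR adjusted p = 0.0668, 0.0229 by DESeq2). The kallisto estimates of Tnfrsf10b were 203 and 318 in ΔleftPAL and 256 and 246 in ΔIRIS cells, 1.45 to 7.52 times the gene counts, with a fitted log2 change of 0.20 (edgeR adjusted p = 0.491). In ΔIRIS cells the gene counts were higher after LPS, whereas the kallisto level was lower, at 3.61 TPM at rest and 2.87 TPM after LPS. The 2 tables therefore disagree on the size of the change in ΔleftPAL cells and on its direction in ΔIRIS cells, and the level of Tnfrsf10b at rest is uncertain.

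Tnfrsf22 (ENSMUSG00000010751, chr7:143634806-143649661, minus strand), a decoy receptor for TRAIL, lies with its paralogs Tnfrsf26 and Tnfrsf23 within 78.188 kb on chromosome 7. It had 48 and 60 counts in ΔleftPAL and 46 and 102 in ΔIRIS cells, at rest and after LPS (log2 0.53 ± 0.35 SE, edgeR adjusted p = 0.243). The kallisto estimates were 8.82 to 31.8 times as high, with 1525 and 962 in ΔleftPAL and 1256 and 900 in ΔIRIS cells, and gave the opposite sign (log2 -0.67, edgeR adjusted p = 0.0111). Between 84.9% and 93.6% of them lay on the single-exon transcript Tnfrsf22-204. No direction is given for Tnfrsf22. Tnfrsf23 had 9 and 15 counts in ΔleftPAL and 15 and 11 in ΔIRIS cells.

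In the RANK group the tested gene fell, as did 31.4% of all genes. Tnfrsf11a (ENSMUSG00000026321, chr1:105780718-105847981, plus strand) encodes RANK, the receptor that drives osteoclast formation and lymph node development. It had 95 and 16 counts at rest and after LPS in ΔleftPAL cells and 147 and 4 in ΔIRIS cells. The LPS libraries were below both resting libraries (fitted log2 -3.81 ± 0.64 SE, edgeR adjusted p = 0.00765), and the kallisto estimates, 207 and 70 in ΔleftPAL and 244 and 50 in ΔIRIS cells, showed a smaller distance. Its ligand gene Tnfsf11 (RANKL) had 5 and 11 counts in ΔleftPAL and 8 and 26 in ΔIRIS cells, and the decoy gene Tnfrsf11b (osteoprotegerin) had at most 1.

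Both tested genes of the last group fell, against 31.4% of all genes. Tnfrsf12a (ENSMUSG00000023905, chr17:23675447-23677449, minus strand) encodes Fn14, the receptor for TWEAK that is induced by injury in many tissues. It had 58 and 24 counts in ΔleftPAL and 107 and 24 in ΔIRIS cells, lower after LPS in both (fitted log2 -1.94 ± 0.35 SE, edgeR adjusted p = 0.00941). Tnfrsf19 (ENSMUSG00000060548, chr14:60963834-61046855, minus strand), which encodes TROY, an orphan receptor known from neural and epithelial cells, had 124 and 39 counts in ΔleftPAL and 187 and 98 in ΔIRIS cells. It too was below both resting libraries after LPS (fitted log2 -1.49 ± 0.32 SE, edgeR adjusted p = 0.0155). The TWEAK gene Tnfsf12 had 10 and 17 counts in resting ΔleftPAL and ΔIRIS cells and 0 in both LPS libraries, which, against the floor of 3 counts and with the resting counts taken as exact, puts it at least 4.00-fold and at least 6.37-fold lower. With their counting error included, the interval of the log2 ratio ends at -1.43 and -2.21. The antisense gene Tnfsf13os had 12 and 13 counts at rest and 0 after LPS, and Tnfsf12Tnfsf13 had at most 1 in any library. In the kallisto table, however, Tnfsf12Tnfsf13 had 11 and 45 estimated counts in resting ΔleftPAL and ΔIRIS cells and 0 after LPS, so its level at rest depends on the table used.

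The shares of a gene's transcripts differed between resting and LPS-activated cells in several receptors, of which Tnfrsf8, Tnfrsf19 and Cd40 were chosen after their values had been seen. All kallisto counts of Tnfrsf8 in resting cells (9.0 and 7.0) were on Tnfrsf8-202, annotated as a target of nonsense-mediated decay, whereas 76.5% and 79.2% of them in LPS-activated ΔleftPAL and ΔIRIS cells (87.3 and 122.8 estimated counts) were on the coding transcript Tnfrsf8-201. In Tnfrsf19, all estimated counts at rest were on Tnfrsf19-201, and 62.7% and 71.2% after LPS were on Tnfrsf19-202, which has another annotated start (61037950 against 61046469 on chromosome 14, minus strand) and the same number of codons, 416. In Cd40, the share of Cd40-201 (289 codons) was 40.6% and 46.5% at rest and 33.2% and 34.4% after LPS, and that of Cd40-202 (260 codons) was 25.7% and 24.3% at rest and 36.1% and 37.0% after LPS. For each of these shares both LPS libraries lay on the same side of both resting libraries, though the shares of Tnfrsf8 at rest rest on few estimated counts. Shares of other receptors also lay apart: that of Tnfrsf13b-206 was 0.308% and 0.320% at rest and 3.03% and 2.81% after LPS in ΔleftPAL and ΔIRIS cells, that of Tnfrsf22-201 was 6.2% and 6.5% against 11.3% and 14.3%, and that of Tnfrsf14-203 was 6.26% and 10.2% against 1.91% and 3.66%. Of the 9 genes with more than 1 listed transcript, others overlapped between the conditions. The share of Tnfrsf13c-201 was 70.9% and 67.7% at rest and 67.9% and 69.5% after LPS. That of Tnfrsf12a-201 was 66.9% and 66.3% against 66.0% and 73.9%, and that of Ltb-201 was 96.2% and 94.8% against 94.8% and 97.3%. The main coding transcript of Tnfrsf13b held 84.0% to 90.1% of its estimated counts in all libraries. These shares are of reads, to which long transcripts contribute more; by TPM, which corrects for length, that transcript held 51.0% to 64.9%, Cd40-201 held 14.0% and 16.2% at rest and 11.8% and 12.9% after LPS, and Cd40-202 held 17.7% and 16.9% at rest and 25.6% and 27.8% after LPS.

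**Figure D3:**
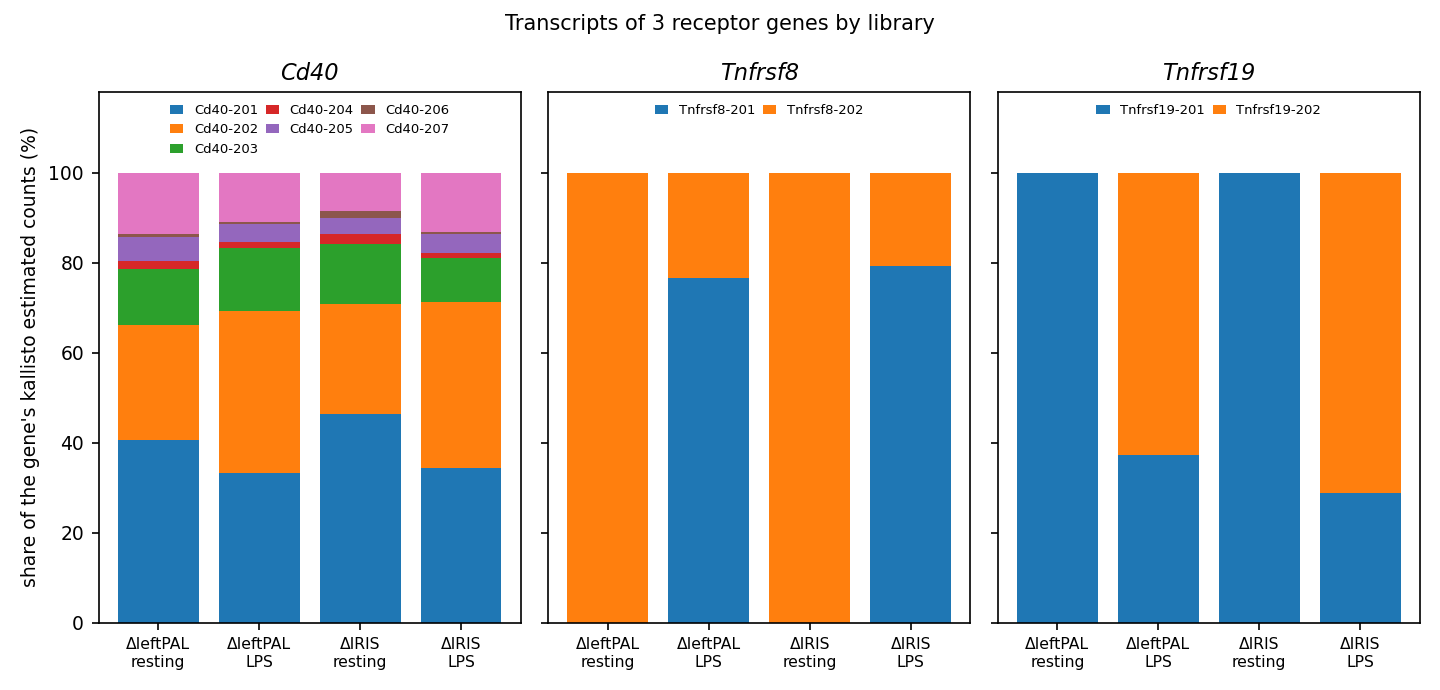
Share of each gene's kallisto estimated counts per annotated transcript in the 4 libraries, for Cd40, Tnfrsf8 and Tnfrsf19. Tnfrsf8-201 and Tnfrsf19-202 are at 0% in both resting libraries and above 60% in both LPS libraries, and Cd40-202 is larger after LPS than at rest in both genotypes.

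The second comparison asked how the level of these genes differed between ΔIRIS and ΔleftPAL cells. With 1 pool per genotype there was no test, and the log2 ratios below compare 2 libraries, with 95% counting intervals in brackets. In resting cells, 1 of the 20 genes was at least 2-fold higher in ΔIRIS (2.44% of the 11286 genes) and 1 at least 2-fold lower (1.37%). The gene that was higher was Tnfrsf10b, at a log2 ratio of 1.57 (0.94 to 2.24) from the gene counts but 0.11 from the kallisto estimates. The one that was lower was Tnfsf10, at -1.07 (-1.47 to -0.69), and with the kallisto estimates it was less than 2-fold lower. In LPS-activated cells, 1 gene was at least 2-fold higher (0.797% of all genes) and 2 at least 2-fold lower (2.43%). Tnfrsf19 was higher at 1.18 (0.63 to 1.75), and Tnfrsf11a, at -2.15 (-4.19 to -0.52) from 4 against 16 counts, and Tnfrsf18, at -1.15 (-1.70 to -0.63), were lower. With the kallisto estimated counts (50 against 70) Tnfrsf11a was less than 2-fold lower, at -0.62, while Tnfrsf18 stayed at -1.09 and Tnfrsf19 at 1.24. None of the 20 tested genes was 2-fold apart in the same direction in both conditions (0.159% of all genes were higher and 0.222% lower in both). Among the genes below the minimum, Tnfrsf17 was more than 2-fold lower in ΔIRIS cells in both, at -1.66 (-4.21 to 0.40) at rest, from 3 against 8 counts, and -2.85 (-6.04 to -0.71) after LPS, from 2 against 13. The sign of the difference was the same in resting and LPS-activated cells for 10 of the 19 genes with a ratio in both (Tnfrsf1a had 1 count in each LPS library), and for 56.9% of the 11129 such genes among all tested.

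**Figure D4:**
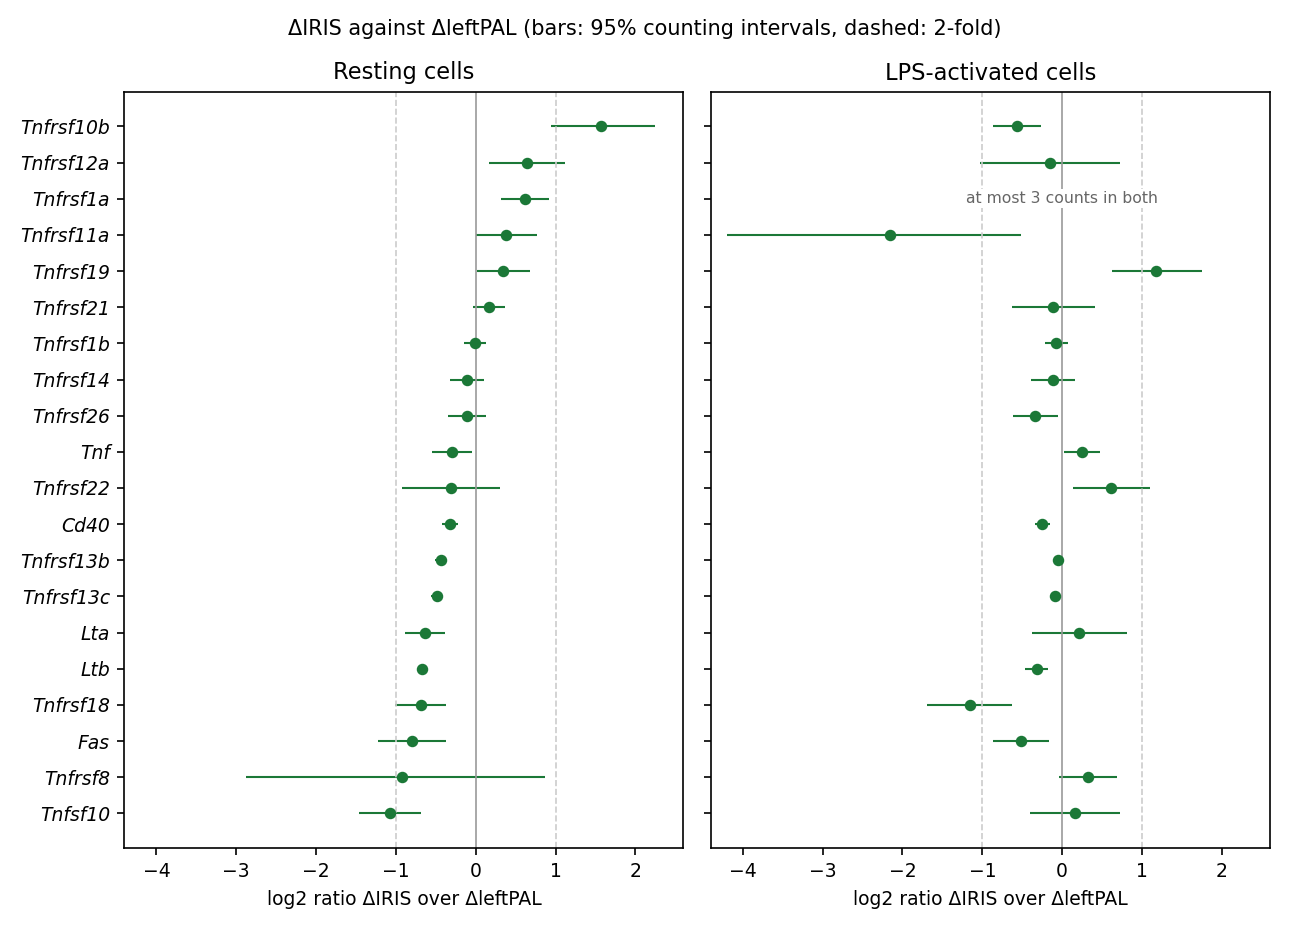
Log2 ratio of ΔIRIS over ΔleftPAL for the 20 tested genes in resting (left) and LPS-activated (right; 19 genes, without Tnfrsf1a) cells, with 95% counting intervals as bars and 2-fold as dashed lines. Ltb, Lta, Tnfrsf13b, Tnfrsf13c and Fas lie left of 0 at rest, and Tnfrsf10b and Tnfrsf19 are the only genes right of the upper 2-fold line, each in 1 condition.

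Ltb, Lta, Tnfrsf13c, Tnfrsf13b and Cd40 were lower in resting ΔIRIS than in resting ΔleftPAL cells. The log2 ratio was -0.68 (-0.73 to -0.62) for Ltb, -0.63 (-0.88 to -0.38) for Lta, -0.49 (-0.56 to -0.42) for Tnfrsf13c, -0.43 (-0.51 to -0.36) for Tnfrsf13b and -0.33 (-0.42 to -0.23) for Cd40. After LPS the same ratio was -0.32 (-0.47 to -0.17) for Ltb, -0.09 (-0.16 to -0.03) for Tnfrsf13c, -0.05 (-0.09 to -0.01) for Tnfrsf13b and -0.25 (-0.35 to -0.15) for Cd40, all below 0, while that of Lta was 0.21 with an interval that included 0 (-0.37 to 0.81). Fas was lower in ΔIRIS cells in both conditions, at -0.80 (-1.23 to -0.37) at rest and -0.52 (-0.87 to -0.17) after LPS, as was Tnfrsf18. In the other direction at rest were Tnfrsf1a at 0.61 (0.31 to 0.91), Tnfrsf12a at 0.64 (0.16 to 1.12) and Ltbr at 0.51 (0.07 to 0.96). So were Tnfrsf19 at 0.34 (0.01 to 0.68) and, by the gene counts, Tnfrsf10b. After LPS, Tnfrsf10b lay on the other side, at -0.57 (-0.87 to -0.27). Tnf also turned, from -0.30 (-0.55 to -0.05) at rest to 0.25 (0.03 to 0.47) after LPS. Tnfrsf1b was level between the genotypes, at -0.01 (-0.14 to 0.13) at rest and -0.07 (-0.21 to 0.07) after LPS. The median was -0.31 over the 20 genes at rest and -0.11 over the 19 with a ratio after LPS, against 0.00 over all genes in both conditions. Whether these differences exceed the spread between mice of one genotype cannot be told from 1 pool each.

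The genes through which these receptors signal were followed in lists of TRAF adaptors, receptor-proximal signalling genes and NF-κB subunits and inhibitors. All 6 TRAF genes in the list passed the LPS test, 2 higher and 4 lower, beside 31.3% and 31.4% of all genes. Traf1, an NF-κB target gene, had 981 and 2959 counts at rest and after LPS in ΔleftPAL cells and 998 and 2577 in ΔIRIS cells (log2 1.27 ± 0.12 SE, edgeR adjusted p = 0.00183). Traf5 had 1080 and 366, and 1072 and 382 counts, and fell (log2 -1.74 ± 0.13 SE, edgeR adjusted p = 0.00132). Traf2 and Traf3, which restrain the NF-κB-inducing kinase below CD40 and BAFF-R, fell by less, with log2 changes of -0.42 and -0.57. Traf6 also fell by less (-0.72), with a log2 ratio of -0.33 in ΔleftPAL and -1.11 in ΔIRIS cells. Traf4 rose by 0.48.

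Of 20 receptor-proximal genes, 1 rose (Map3k7, the kinase TAK1, 0.59 ± 0.12), 9 fell and 10 did not pass the test, beside 31.3% of all genes that rose and 31.4% that fell. The 6 that fell by at least 2-fold, as 19.2% of all genes did, were Map3k14 (the NF-κB-inducing kinase, -1.78 ± 0.13), Ikbkb (a kinase of IκB, -1.15 ± 0.12), Birc3 (cIAP2, -1.13 ± 0.13), Sharpin and Rnf31 (parts of the linear ubiquitin ligase, -1.01 ± 0.12 and -1.08 ± 0.19) and Tnfaip3 (A20, an inhibitor of NF-κB signalling, -1.67 ± 0.41; all log2 ± SE). These changes are fitted over both genotypes. Map3k14, Ikbkb and Birc3 fell past 2-fold in each genotype. The log2 ratio was short of 2-fold in ΔleftPAL cells for Sharpin (-0.93) and Tnfaip3 (-0.88), and in ΔIRIS cells for Rnf31 (-0.77). Among 9 NF-κB genes, 1 rose (Nfkb1, 0.38 ± 0.11, beside 31.3% of all genes) and 6 fell (31.4%). Rel (c-Rel) and Nfkbid fell most, at -2.23 ± 0.41 and -2.10 ± 0.15, and Nfkb2, Relb, Rela and Nfkbie fell by less than 2-fold. Tnfaip3 had 3464 and 2251 counts at rest and after LPS in ΔleftPAL cells and 11994 and 2478 in ΔIRIS cells. Rel had 1942 and 846 counts, and 4879 and 683, in the same order. These were the genes of the 2 lists that were at least 2-fold higher in resting ΔIRIS than in resting ΔleftPAL cells, at a log2 ratio of 1.54 and 1.08. Among all genes, 2.44% were that much higher at rest. After LPS, no gene of the 2 lists was 2-fold apart between the genotypes (0.797% of all genes were higher and 2.43% lower). Of 3 proteases that shed or process superfamily proteins, 2 fell and 1 did not pass, beside 31.4% of all genes that fell. Furin, which cleaves BAFF and APRIL, fell (-1.01 ± 0.18), with a log2 ratio of -0.72 in ΔleftPAL and -1.29 in ΔIRIS cells. Adam10 fell by less (-0.51 ± 0.11) and Adam17, which sheds TNF, did not pass (-0.05 ± 0.13, edgeR adjusted p = 0.751). Of 5 superfamily genes with other names, 2 were tested: 1 fell (31.4% of all genes) and 1 did not pass. Ngfr fell from 91 to 15 counts in ΔleftPAL and from 87 to 30 in ΔIRIS cells (-2.23 ± 0.40), and Relt did not pass (-0.49 ± 0.28, edgeR adjusted p = 0.187).

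**Figure D5:**
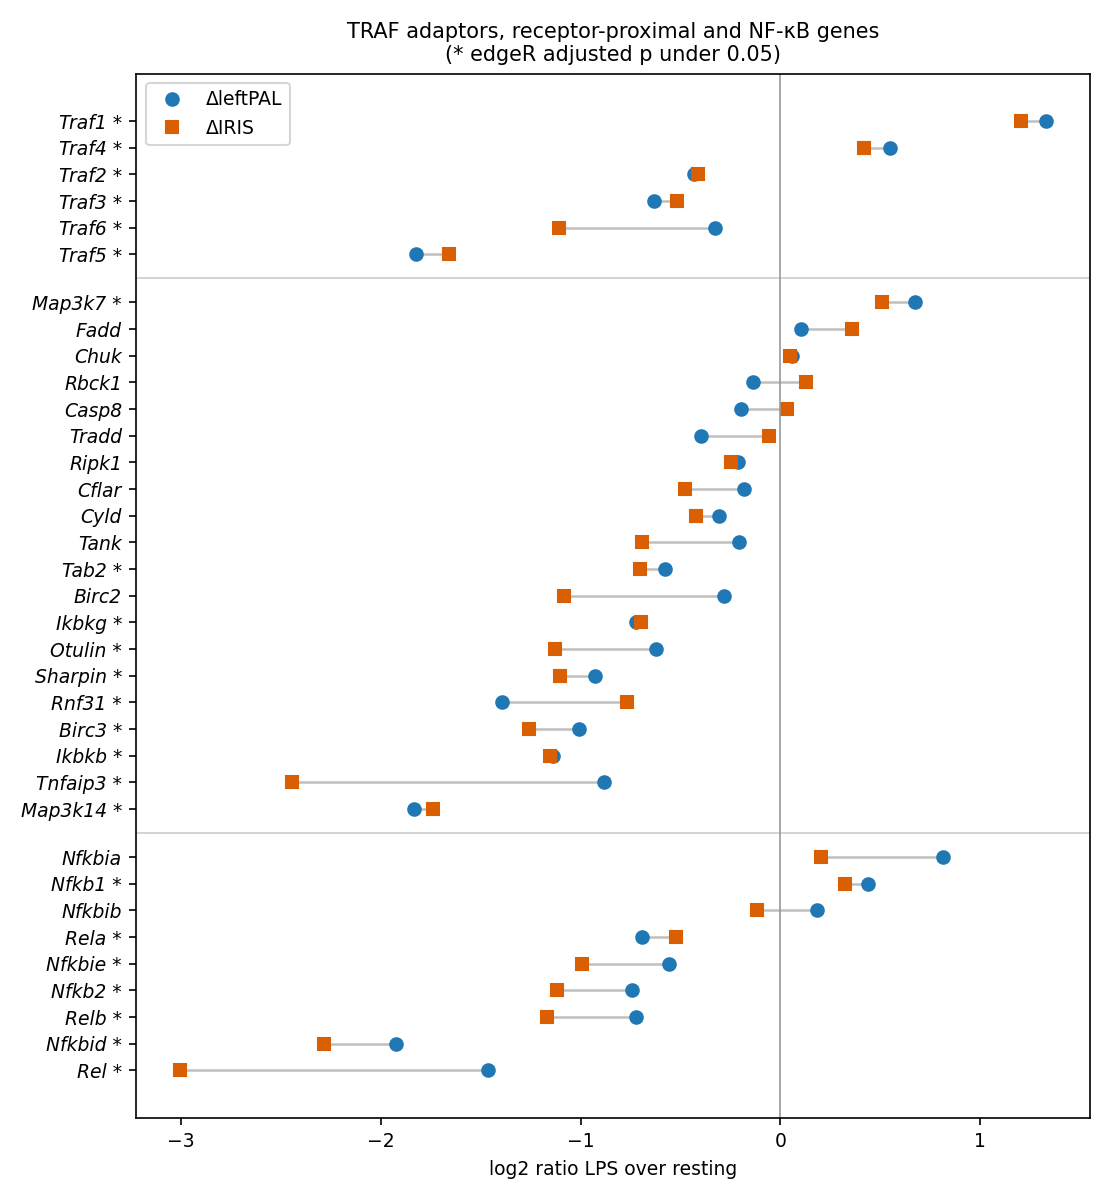
Log2 ratio of LPS-activated over resting cells for 6 TRAF genes, 20 receptor-proximal genes and 9 NF-κB genes, with circles for ΔleftPAL, squares for ΔIRIS and an asterisk at an edgeR adjusted p under 0.05. Traf1 lies farthest right in both genotypes, and the symbols of Tnfaip3 and Rel lie far apart.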

How the data were processed

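RNA of splenic B cells was sequenced by the authors with a stranded, rRNA-depleted protocol as paired reads of 150 nt, 1 library per genotype and condition. The authors mapped the reads with STAR 2.4.0a to mm10 (Ensembl release 77) and deposited raw counts of fragments by gene name, made with featureCounts (Subread 1.4.6-p1) by strand, counting the primary alignment of reads that map more than once. They also deposited kallisto 0.42.3 estimated counts and the TPM values for 88198 transcripts, which were summed per gene and rounded for the count test. The row without a gene name (0.00876% to 0.0264% of counts) was left out. Columns of other samples numbered 0.

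Genes averaging 50 counts or more were kept, TMM factors (0.964 to 1.04) were computed on them, and edgeR 4.0.16 (R 4.3.3) fitted genotype plus LPS by quasi-likelihood with Benjamini-Hochberg adjustment over 11286 genes. Each SE was back-calculated as the size of the fitted log2 change over the square root of the F statistic of its edgeR test. It is therefore no separate estimate of error, and it can be too small where a condition has few counts. The study's methods state no test for these libraries. Ratios of 2 libraries are of TMM-scaled CPM with 95% Clopper-Pearson intervals (scipy 1.17.1); a count of 0 was set at 3 as a bound, and no ratio was given where both were at or under 3. FPKM (TMM-scaled CPM per kb) used the gene lengths of the count table, which also gave positions in mm10; transcripts were named from GENCODE M21. Promoter sequences are from RefSeq (GRCm38.p6). At these depths 3 counts are 0.0965 to 0.129 CPM, and values near it have wide intervals. The procedure was tested on simulated data in which the LPS change was the same in both genotypes. That simulation cannot show how the calls hold where the LPS change differs between the genotypes. As alternatives, the fits were repeated with library totals, with DESeq2 1.42.0 (size factors and Wald test), TMM without immunoglobulin genes, both kallisto tables, other minimum counts, added CPM and no genotype block. Members in the test are given in every library, the others by counts, and of pathway lists the genes called at 2-fold or more. Other pathway genes and single cell type markers were named after their values were seen. The members and lists were chosen with earlier results of these data known.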

Additional observations from a re-analysis of the deposited data

Results flagged for a closer look

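Tnfrsf13c (BAFF-R) was lower after LPS in one genotype and higher in the other by the gene counts. Its log2 ratio was -0.18 in ΔleftPAL cells (95% counting interval -0.24 to -0.11) and 0.22 in ΔIRIS cells (0.15 to 0.28), a difference of 0.40. The difference was not tested, since each genotype had 1 library per condition. It was -0.11 and 0.22 with the kallisto estimated counts but -0.35 and 0.01 with kallisto TPM, so that the higher level after LPS in ΔIRIS cells depends on the table used. Tnf also had opposite signs by the gene counts, at -0.15 (-0.39 to 0.10) in ΔleftPAL and 0.41 (0.18 to 0.64) in ΔIRIS cells. The ΔleftPAL interval of Tnf included 0.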

How the results depend on the processing

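No library could be left out, since each group had 1. Genotype was the block that paired the resting and LPS libraries, and without it 2 genes were called higher and 12 lower, as with it. With a minimum mean of 10 counts or with no minimum, which admit more genes, 4 and 6 members were called higher; in ΔleftPAL cells 5 and 6 and in ΔIRIS cells 6 and 7 were at least 2-fold higher after LPS, and with no minimum 17 and 14 were at least 2-fold lower. With 5 CPM added, which shrinks low genes, 4 were lower in each genotype and 1 was higher in ΔIRIS cells. For ΔIRIS over ΔleftPAL at rest, the number at least 2-fold higher was 0 with kallisto counts, kallisto TPM or 5 CPM added, 2 with a minimum of 10 and 3 with none, and the number lower was 0 with either kallisto table or with 0.5 or 5 CPM added and 3 with no minimum. After LPS it was 2 higher with either lower minimum and 0 with CPM added, and 1 lower with kallisto counts, 5 with no minimum and 0 with CPM added. The sign of Tnfrsf22 turned with the kallisto estimates (log2 -0.67); the cause was not tested. Tnfrsf1b lost its call under 6 settings and Tnfsf10 and Tnfrsf26 under DESeq2's Wald test alone, and Tnfrsf10b gained one under 4. The median of all genes moved by more than 0.1 (log2) with library totals (0.12 on LPS in ΔIRIS cells) and with TMM factors from all genes (0.12 and 0.16 on LPS in ΔleftPAL and ΔIRIS cells), and no direction of a called member flipped with either.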
